A study of Homo sapiens with 9 samples.

Results

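Plasminogen activation and matrix metalloproteinases were followed through 10 genes, PLAU, PLAUR, PLAT, MMP1, MMP7, MMP10, MMP13, MMP14, TIMP1 and TIMP2, chosen by symbol from the 33861 genes of the deposited expression table, and all 10 were found. The RNA came from HCT116 cells, an established human colorectal carcinoma line, in 9 libraries that formed 3 groups of 3. NC cells were the control of the study, and the labels neither spell out this abbreviation nor say how long these cells were cultured. Activin cells received 100 ng/mL activin A for 5 days. Activin + HGF cells received 100 ng/mL activin A for 5 days and then 20 ng/mL hepatocyte growth factor (HGF) for 5 days. All groups were the same line in the same medium with 10% serum, and no library came from cells given HGF alone. HGF, the additional days in culture and any withdrawal of activin after its 5 days therefore cannot be told apart.

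Urokinase (PLAU) and tissue plasminogen activator (PLAT) cut the serum protein plasminogen into plasmin, a broad protease that degrades fibrin and matrix proteins, and the receptor PLAUR holds urokinase at the cell surface. Plasmin can in turn trim the inactive precursors of several matrix metalloproteinases (MMPs), zinc enzymes that cut collagens and other matrix proteins, and tissue inhibitors of metalloproteinases (TIMPs) block the active enzymes. In colorectal tumours, both systems are known for their part in invasion through the surrounding matrix, and much of this protease is made by stromal cells, which a culture of a carcinoma line does not include.

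Positions are those of the deposited table, whose build is not given in the sources used here. Of its gene IDs found in the GENCODE GRCh38 annotation, 99.8% overlapped the annotated gene and 60.0% had the same start and end. PLAU (ENSG00000122861) lies on chromosome 10 from 73909177 to 73917494 and PLAUR (ENSG00000011422) on chromosome 19 from 43646095 to 43670169. MMP14 (ENSG00000157227) lies on chromosome 14 from 22836560 to 22849027, TIMP1 (ENSG00000102265) on chromosome X from 47582408 to 47586789, and TIMP2 (ENSG00000035862) on chromosome 17 from 78852977 to 78922401. PLAT is placed where it is described, and MMP7 (ENSG00000137673), MMP10 (ENSG00000166670), MMP1 (ENSG00000196611) and MMP13 (ENSG00000137745), share 1 stretch of chromosome 11.

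Promoters were read from RefSeq (GRCh38.p14), where 6 of the 10 genes had an entry. PLAT, MMP1, MMP13 and TIMP2 are named only. The 250 bases before each start were searched on both strands for TGANTCA and for TATAAA, the core of a TATA box. TGANTCA stands here for a possible site of AP-1 factors (dimers of the FOS and JUN families). Neither motif overlaps the other in the matches below. The stretches before MMP10, MMP7 and PLAUR are shown because these are the 3 genes with a TGANTCA match. Capitals mark TGANTCA and TATAAA matches, and each run ends at the base before the RefSeq start.
MMP10, chr11:102780629-102780728, minus strand: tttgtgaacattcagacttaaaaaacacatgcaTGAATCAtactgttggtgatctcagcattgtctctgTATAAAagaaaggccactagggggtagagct
MMP7, chr11:102530748-102530847, minus strand: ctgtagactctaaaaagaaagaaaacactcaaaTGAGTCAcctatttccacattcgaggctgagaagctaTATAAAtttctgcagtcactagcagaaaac
PLAUR, chr19:43670170-43670369, minus strand: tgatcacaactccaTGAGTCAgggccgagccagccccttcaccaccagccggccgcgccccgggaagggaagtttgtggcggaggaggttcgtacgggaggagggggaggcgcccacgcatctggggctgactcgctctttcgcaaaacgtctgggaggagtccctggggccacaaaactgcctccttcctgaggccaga

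The match begins 67 bases before the start in both MMP10 and MMP7, and 186 bases before it in PLAUR. MMP10 and MMP7 also hold TATAAA, at 31 and 30 bases before the start. Of 35116 RefSeq promoters of the same length, 6.57% hold TGANTCA and 10.7% hold TATAAA. A match is a description of the letters. MMP10 and MMP7 hold both motifs at nearly the same places, with TGAATCA in MMP10 and TGAGTCA in MMP7. Any role of these matches in the levels of the genes was not tested.

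Libraries held 57453977 to 77016167 counts. Levels of a gene are given as CPM, the count of a gene scaled to a library of fixed size, and levels between genes as the deposited FPKM, which also divides by transcript length. Calls came from the quasi-likelihood test of edgeR on 20988 genes, and required both an adjusted p (Benjamini-Hochberg) under 0.05 and a log2 fold change of 1 or more in either direction. Of the 10 genes, 9 passed its filter on low counts and MMP13 did not. Scaling factors were lowest in the activin + HGF libraries, at 0.783 to 0.926 against 0.988 to 1.17 in the others, and with library totals alone the share of called genes that were higher dropped from 47.9% to 15% for activin + HGF against activin and from 52.6% to 33.4% for activin + HGF against NC. Activin replicate 2 and activin + HGF replicate 1 stood apart from the other libraries of their groups, with a chi-square per degree of freedom of 195 to 249 against their group mates, where the remaining pairs gave 54.9 to 77.9. Nothing in the labels says that libraries of a group came from separate cultures, so p-values measure the spread between these libraries, which may be technical.

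Of 10 colon epithelial markers, 7 in NC, 6 in activin and 6 in activin + HGF cells reached a mean FPKM of 1. CDX1, VIL1 and CDH17 stayed at a mean FPKM of 0.0733 or less in each group. The summed FPKM of the 10 was 668 to 722 in NC, 556 to 759 in activin and 645 to 876 in activin + HGF libraries. Of 6 measured fibroblast markers, summed at 2.66 to 2.82, 4.60 to 6.05 and 2.88 to 3.65 in the same order, only COL1A1 reached a mean FPKM of 1, and 5 endothelial markers summed to at most 0.38. Of 4 tested fibroblast markers, COL1A1 was called higher with activin over NC (1.03, edgeR adjusted p = 0.00205). COL3A1 was called lower with activin over NC and higher in activin + HGF over activin. Its means were 1.91, 0.0136 and 0.328 CPM in NC, activin and activin + HGF. In activin + HGF over NC, COL3A1 and PDGFRA were called lower, and PDGFRA had means of 0.837, 0.134 and 0 CPM in the same order. PDGFRA passed the filter on low counts only through its NC libraries, so its call says little. Of 9 tested colon markers, EPCAM was called higher in activin + HGF over activin (1.02, edgeR adjusted p = 0.0067) and KRT20 lower with activin and with activin + HGF over NC (-1.63 and -1.34, adjusted p = 0.0203 and 0.0297). The 7 leukocyte markers summed to 0.99 to 1.99 in NC, 4.78 to 9.03 in activin and 6.03 to 8.11 in activin + HGF libraries. Most of that was CD68, with a CPM of 1.95 ± 0.921, 13.9 ± 6.53 and 19.8 ± 3.17 (SD, n = 3), while PTPRC, which marks all leukocytes, had 11 counts in activin replicate 1, 4 in activin + HGF replicate 2 and 0 in each of the others. Of 5 tested leukocyte markers, CD68 and CSF1R were called higher with activin over NC. CSF1R was called lower in activin + HGF over activin, with means of 0.316, 1.87 and 0.330 CPM in NC, activin and activin + HGF, and CD68 was called higher over NC in activin + HGF too. Of all tested genes, 6.78% were called higher and 4.62% lower with activin over NC. These shares were 3.87% and 4.21% in activin + HGF over activin, and 11.3% and 10.2% in activin + HGF over NC. Single marker genes are named here after their values were seen, and their part in the changes described was not tested.

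Activin cells were first compared with NC cells, for the effect of the first step of treatment. PLAU, PLAUR, MMP1 and TIMP1 rose, where 6.78% of all tested genes were called higher and 4.62% lower. The largest fitted value was that of MMP1, which stayed far below the other 3 in level. That value rests on 15 counts in NC, and MMP1 passed the filter on low counts only through its treated libraries. In activin + HGF cells against activin cells, MMP1, MMP10, MMP14 and TIMP1 rose, where 3.87% of all genes were called higher and 4.21% lower. In activin + HGF cells against NC cells, 6 genes rose (PLAU, PLAUR, MMP1, MMP10, MMP14 and TIMP1) beside 11.3% of all genes higher and 10.2% lower. Of all tested genes, 20.9%, 17.2% and 25.7% were higher without overlap between the libraries of both groups in the 3 comparisons. Each pair of these comparisons shares the libraries of 1 group, so they are not independent. In bulk RNA, a change in the share of cells that express a gene and a change in RNA per cell cannot be told apart.

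**Figure D1:**
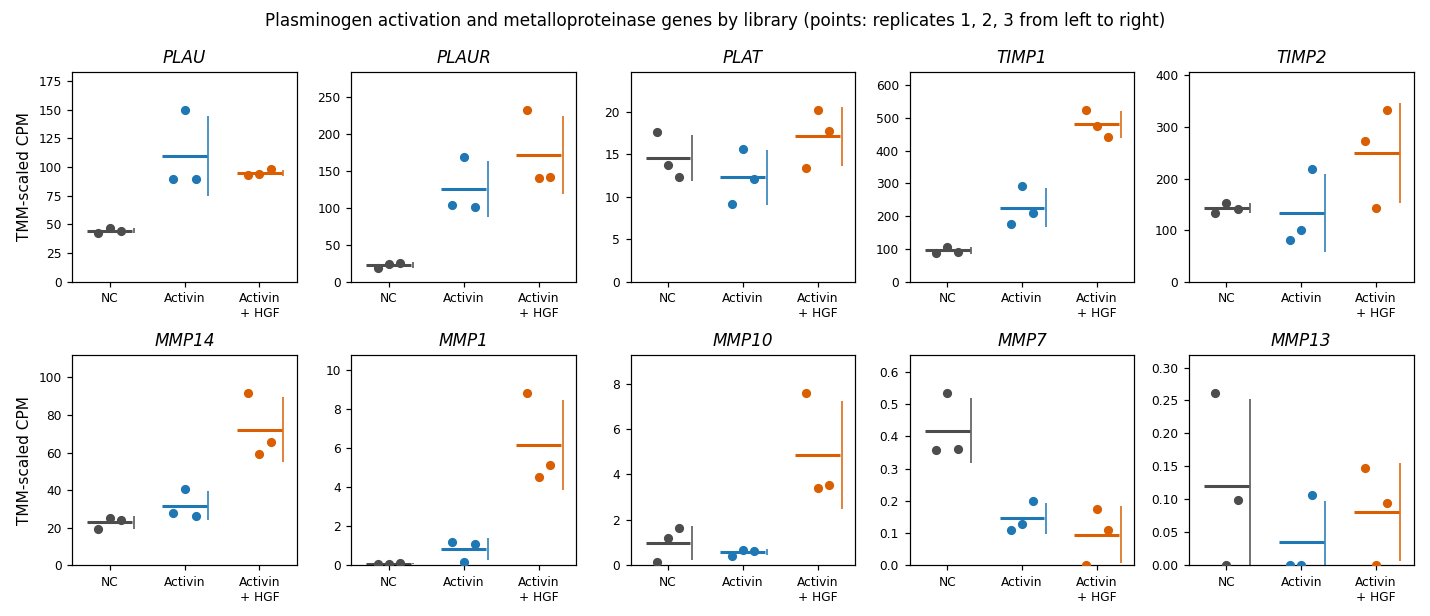
Level of each of the 10 genes in every library, as TMM-scaled CPM on linear axes that start at 0 and differ between panels. Points are replicates 1, 2 and 3 from left to right, horizontal lines are the means of 3 libraries and vertical lines their SD. TIMP1 rises in steps with no overlap between groups, PLAU is about as high in activin as in activin + HGF libraries, and MMP10 and MMP14 are highest in the 3 activin + HGF libraries.

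PLAU encodes urokinase, the activator that acts at the cell surface. Its CPM was 42.3, 47.0 and 44.7 in NC, 89.5, 150 and 90.0 in activin, and 93.6, 93.7 and 98.1 in activin + HGF libraries. Every treated library lay above every NC library, activin replicate 2 was the highest, and both treated groups overlapped. Against NC, PLAU rose by a log2 fold change of 1.30 (SE 0.212, edgeR adjusted p = 0.00246) with activin and 1.09 (SE 0.211, adjusted p = 0.0035) with activin + HGF. Between activin + HGF and activin the log2 fold change was -0.21 (SE 0.208, edgeR adjusted p = 0.547). In the scaled counts this sign rested on activin replicate 2, since the value was 0.08 without it. In deposited FPKM, every activin library (30.5, 43.5 and 30.2) lay above every activin + HGF library (20.8, 24.8 and 25.3). Over 12 alternatives other than left-out libraries, the log2 fold change was -0.54 to -0.17, and 0 were called. The adjusted p of these edgeR, DESeq2 and limma fits was 0.0447 to 0.609, and none reached the fold limit. Per length, PLAU was at 13.6 ± 0.410, 34.8 ± 7.59 and 23.6 ± 2.46 FPKM (SD, n = 3) in NC, activin and activin + HGF cells. The change against NC after activin + HGF fell under the fold limit in 4 of 12 alternatives, at 0.82 with library totals alone (edgeR adjusted p = 0.00661) and at 0.75 to 0.79 with limma on log2 FPKM.

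PLAUR encodes the urokinase receptor, a glycolipid-anchored protein. It was at 18.1, 24.5 and 26.0 CPM in NC, at 105, 170 and 102 CPM in activin, and at 233, 141 and 142 CPM in activin + HGF libraries. Again the treated libraries all lay above NC and overlapped with each other, and the highest value in each treated group came from the library that stood apart. PLAUR rose by 2.46 on the log2 scale (SE 0.286, edgeR adjusted p = 0.000402) with activin and by 2.91 (SE 0.291, adjusted p = 0.000101) with activin + HGF, both against NC. These are folds of 5.49 and 7.52. Activin + HGF against activin gave 0.45 (SE 0.271, edgeR adjusted p = 0.29). Without both libraries that stood apart, the changes against NC were 2.18 and 2.64, and both remained called. A small RNA pseudogene inside PLAUR, RN7SL368P, held 51 counts over the 9 libraries where PLAUR held 62267.

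PLAT (ENSG00000104368, chromosome 8 from 42174718 to 42207565) encodes tissue plasminogen activator, which is best known from the clearance of clots. Its CPM was 17.6, 13.7 and 12.3 in NC, 9.16, 15.6 and 12.04 in activin and 13.3, 20.2 and 17.7 in activin + HGF libraries, and all groups overlapped. The log2 fold changes were -0.24 (SE 0.255, edgeR adjusted p = 0.576) for activin against NC, 0.48 (SE 0.256, adjusted p = 0.239) for activin + HGF against activin and 0.23 (SE 0.255, adjusted p = 0.528) for activin + HGF against NC, the last of which turned to -0.021 with library totals alone. PLAT was the less abundant of the activators per length, at 1.61 to 1.84 FPKM in the 3 groups.

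**Figure D2:**
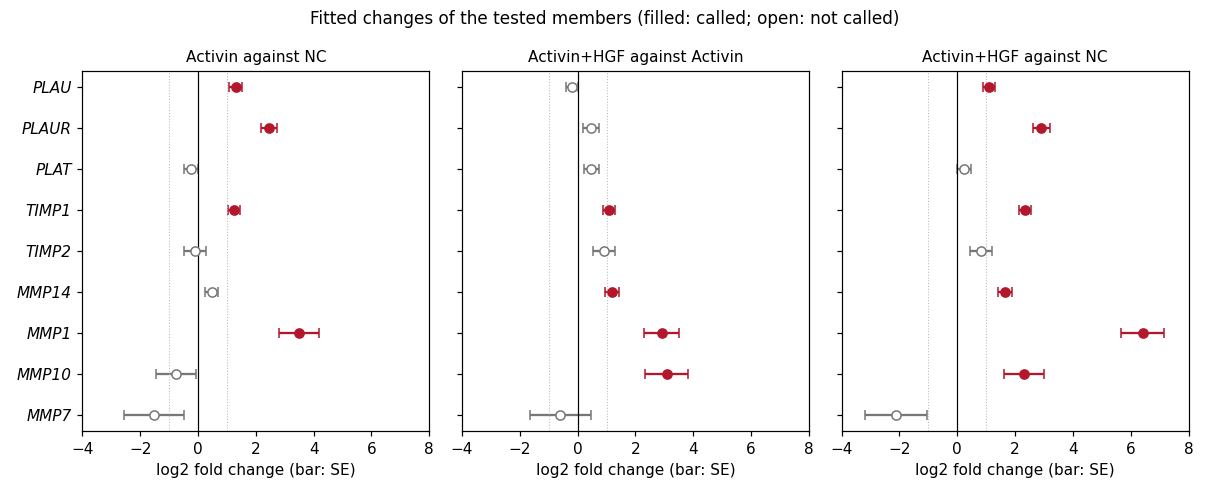
Fitted log2 fold changes of the 9 tested genes in each comparison, with bars of 1 SE. Filled points were called (adjusted p under 0.05, and beyond the dotted lines at -1 and 1), and open points were not. The value of MMP1 in the comparison with NC after both factors, at 6.41, rests on 15 counts in NC. PLAU and PLAUR are filled in both panels against NC and open in the middle one.

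The metalloproteinases MMP7, MMP10, MMP1 and MMP13 lie on the minus strand of chromosome 11 between 102520508 and 102955732 (435.2 kb), where the table places 7 metalloproteinase genes among 12 genes. MMP1 is interstitial collagenase, which cuts fibrillar collagen. It had 4, 3 and 8 counts in NC, 88, 11 and 81 counts in activin, and 480, 312 and 329 counts in activin + HGF libraries. The 3 groups did not overlap in CPM, although activin replicate 2 lay close to NC at 0.176 CPM, and the other activin libraries were at 1.19 and 1.08 CPM. MMP1 rose by 3.50 on the log2 scale with activin (SE 0.699, edgeR adjusted p = 0.00708), by a further 2.91 with activin + HGF over activin (SE 0.614, adjusted p = 0.016), and by 6.41 with activin + HGF over NC (SE 0.756, adjusted p = 0.00024). The first of these lost its call with limma on log2(FPKM + 1), at 0.43 (adjusted p = 0.105), and on unfiltered log2(FPKM + 0.1), at 1.74 (adjusted p = 0.0772). Each fold against NC rests on 15 counts in that group, whose libraries lay under the filter on low counts, so that MMP1 was tested only through its treated libraries. Despite the size of these changes, MMP1 reached only 2.23 ± 0.613 FPKM (SD, n = 3) after both factors. The step from activin to activin + HGF had an adjusted p of 0.0528 without activin replicate 1 and 0.054 without activin replicate 3 (edgeR). Without activin replicate 2 and activin + HGF replicate 1 together, it was 2.09 and stayed called.

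MMP10, stromelysin 2, cuts proteoglycans and fibronectin and can activate other proenzymes. Its counts were 8, 79 and 130 in NC, 30, 42 and 48 in activin, and 413, 234 and 226 in activin + HGF libraries. The NC libraries ranged from 0.131 to 1.62 CPM and enclosed the activin libraries, and the activin + HGF libraries all lay above both, at 3.40 to 7.59 CPM. Activin against NC gave -0.77 (SE 0.694, edgeR adjusted p = 0.506). MMP10 rose by 3.07 (SE 0.731, edgeR adjusted p = 0.0246) in activin + HGF over activin and by 2.30 (SE 0.705, adjusted p = 0.0307) over NC. Both calls were lost without activin + HGF replicate 1, with adjusted p-values of 0.0692 and 0.103, and without both libraries that stood apart, with 0.0693 and 0.108. The first was also lost without activin replicate 1 (0.105) or activin replicate 3 (0.0832), and the second without NC replicate 2 (0.0743).

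MMP7, matrilysin, is an epithelial metalloproteinase that is often abundant in colon tumours. Here it was near the limit of these libraries, with 22, 36 and 29 counts in NC, 8, 8 and 15 in activin, and 0, 12 and 7 in activin + HGF libraries. All treated libraries lay below all NC libraries in CPM, but MMP7 passed the filter on low counts only through its NC libraries. Of all tested genes, 21.3% were lower without overlap in activin against NC, and 28.1% in activin + HGF against NC. The log2 fold changes against NC were -1.51 (SE 1.04, edgeR adjusted p = 0.369) and -2.11 (SE 1.07, adjusted p = 0.161), and neither passed the test. Activin + HGF over activin gave -0.59 (SE 1.06, edgeR adjusted p = 0.751). The 0 in activin + HGF replicate 1 allows up to 0.0551 CPM, which is 3 counts of that library. MMP13, collagenase 3, had 16, 0 and 8 counts in NC, 0, 0 and 8 in activin, and 8, 0 and 6 in activin + HGF libraries and was not tested. No difference in MMP13 was detectable at this depth.

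**Figure D3:**
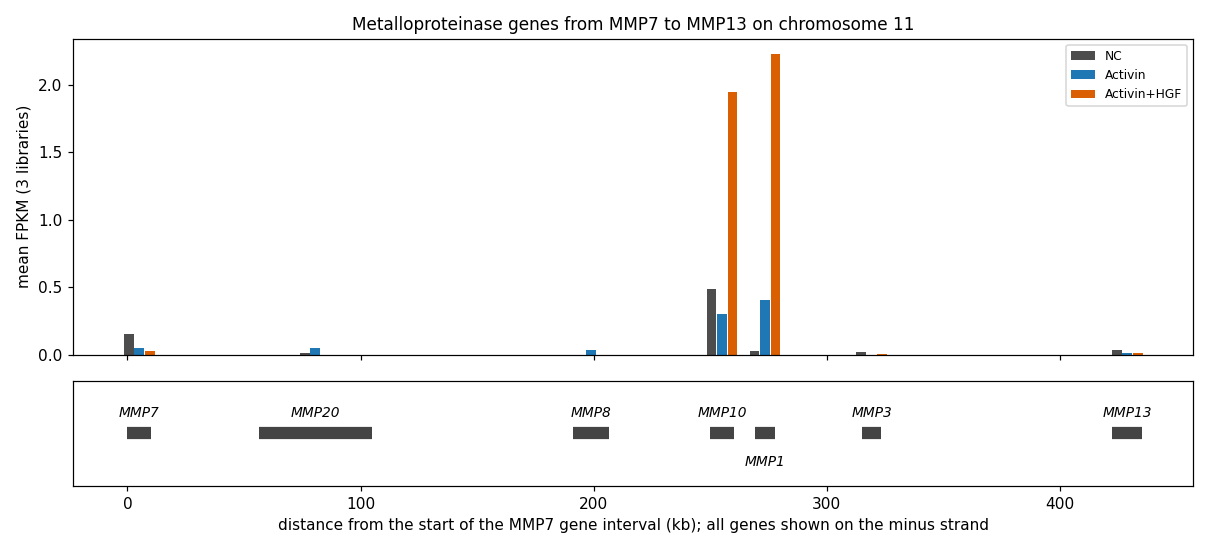
Mean FPKM of the 7 metalloproteinase genes from MMP7 to MMP13 in the 3 groups (3 libraries each, bars starting at 0), above the extent of each gene, against the distance in kb from the start of the MMP7 interval. MMP10 and MMP1, 250 and 269 kb along, are the neighbouring pair with bars above 1 FPKM, and only in activin + HGF cells.

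MMP10 and MMP1 are neighbours in this stretch, 250 and 269 kb from the start of the MMP7 interval. The genes on either side held few counts. MMP8 had 26 counts over the activin libraries and 0 over the others, MMP3 had 12, 0 and 4 counts over the NC, activin and activin + HGF libraries, and MMP20 had 10, 27 and 0. In the same order, MMP10 totalled 217, 120 and 873 counts and MMP1 15, 180 and 1121. WTAPP1, a transcript on the opposite strand that spans MMP10 and MMP1, held 5 counts over all 9 libraries.

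MMP14 is a membrane-anchored metalloproteinase that cuts collagen at the cell surface and activates proMMP2. It was at 19.0, 25.2 and 24.2 CPM in NC, 28.0, 40.4 and 26.2 CPM in activin, and 91.7, 59.2 and 65.6 CPM in activin + HGF libraries. The groups were ordered without overlap, with NC lowest and activin + HGF highest. The first step, 0.47 (SE 0.235, edgeR adjusted p = 0.207), did not pass the test. MMP14 rose by 1.20 on the log2 scale in activin + HGF over activin (SE 0.237, edgeR adjusted p = 0.0131) and by 1.66 over NC (SE 0.24, adjusted p = 0.000747). The step after HGF was 0.85 with library totals alone (adjusted p = 0.0193), under the fold limit. It kept its call in 7 of 12 alternatives other than left-out libraries, with a lowest value of 0.73. It also lost its call without activin replicate 1 (adjusted p = 0.0662), activin replicate 3 (0.0588) or activin + HGF replicate 1 (log2 fold change 0.99). Without both libraries that stood apart it was 1.21 (edgeR adjusted p = 0.00238).

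TIMP1 inhibits most metalloproteinases and also acts as a growth factor for some cells. Its CPM was 88.3, 107 and 91.2 in NC, 177, 293 and 209 in activin, and 524, 475 and 441 in activin + HGF libraries. No groups overlapped, and every library of a later step lay above every library of the step before. TIMP1 rose by 1.24 on the log2 scale with activin (SE 0.202, edgeR adjusted p = 0.00246), by 1.09 from activin to activin + HGF (SE 0.202, adjusted p = 0.0105), and by 2.33 from NC to activin + HGF (SE 0.209, adjusted p = 5.94e-05), a fold of 5.03. The middle value was 0.76 with library totals alone (adjusted p = 0.0139) and lost its call without activin replicate 1 (0.87, adjusted p = 0.0506) or activin replicate 3 (0.96, adjusted p = 0.0442). It kept its call in 8 of 12 alternatives other than left-out libraries, with a lowest value of 0.73. It was 1.25 without both libraries that stood apart (edgeR adjusted p = 0.00133). TIMP1 lies within SYN1 on the opposite strand, a neuronal gene with 667 counts where TIMP1 had 156447, and whether counting used strand is not stated in the sources used here.

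TIMP2 inhibits metalloproteinases and, with MMP14, takes part in the activation of proMMP2. It was at 133, 153 and 141 CPM in NC, 80.3, 101 and 219 CPM in activin, and 273, 142 and 333 CPM in activin + HGF libraries. Replicate 3 was far above its group mates in activin cells, all 3 groups overlapped, and the spread within the treated groups (SD 74.7 and 97.6 CPM) was several times that in NC (9.79 CPM). The log2 fold changes were -0.09 (SE 0.379, edgeR adjusted p = 0.905), 0.90 (SE 0.382, adjusted p = 0.142) and 0.81 (SE 0.381, adjusted p = 0.132) in the 3 comparisons. The first had no stable sign, at 0.0036 with library totals alone, and the second was 1.39 and called (adjusted p = 0.0451) without activin replicate 3.

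In level per length, TIMP1 was the highest of the 10 genes in each group, at 59.2 ± 5.06, 146 ± 25.3 and 242 ± 12.6 FPKM (SD, n = 3). In NC it was followed by TIMP2 (22.6 FPKM), PLAU (13.6), PLAUR and MMP14 (both 4.57), and PLAT (1.84), of which only PLAUR and MMP14 overlapped over their libraries. MMP10 (0.487) and MMP7 (0.157) overlapped below them, as did MMP13 (0.0367) and MMP1 (0.03). In activin cells PLAU (34.8 FPKM), PLAUR (26.3) and TIMP2 (22.7) could not be ordered beyond their spread. Below them came MMP14 (6.62), PLAT (1.61), MMP1 (0.407) with MMP10 (0.300), and MMP7 (0.0533) with MMP13 (0.0133). In activin + HGF cells TIMP2 (32.1 FPKM), PLAUR (27.7) and PLAU (23.6) again overlapped, MMP14 followed at 11.7, and MMP1 (2.23), MMP10 (1.95) and PLAT (1.78) formed the next overlapping set above MMP7 (0.03) and MMP13 (0.0167).

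The other genes of the plasminogen system were read from a list of 25, of which 23 were tested. Of these 23, 5 rose with activin over NC, 1 in activin + HGF over activin and 6 in activin + HGF over NC (21.7%, 4.35% and 26.1%, where 6.78%, 3.87% and 11.3% of all tested genes were called higher), with median log2 fold changes of 0.39, 0.28 and 0.79 against 0.02, -0.04 and -0.03 over all tested genes. SERPINE2, protease nexin 1, a serpin that inhibits urokinase and plasmin, was at 96.1, 75.5 and 85.6 CPM in NC, 253, 272 and 191 CPM in activin, and 411, 307 and 273 CPM in activin + HGF libraries. No groups overlapped, and SERPINE2 rose over NC by 1.48 (SE 0.209, edgeR adjusted p = 0.00117) with activin and 1.94 (SE 0.212, adjusted p = 0.000158) with activin + HGF, while activin + HGF over activin gave 0.47 (SE 0.205, adjusted p = 0.154).

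SERPINA5, protein C inhibitor, which also blocks urokinase, was the gene called in activin + HGF over activin, where it rose by 1.40 (SE 0.304, edgeR adjusted p = 0.0172) to a mean of 17.7 CPM. PLG, which encodes plasminogen itself, is mainly a liver product. It had 4 counts in NC replicate 1 and 0 in each of the other libraries and was not tested. Of the other called genes of this list, 4 low ones are named after their values were seen. A2M rose over NC with a mean of 0.0508 CPM in NC, 0.811 in activin and 1.45 in activin + HGF, and THBD with 0.250, 1.33 and 1.13. SERPINB2, which had 0 counts in each NC library and 83, 18 and 19 in activin + HGF, and CPB2, with 0 in each NC library and 14, 12 and 16 in activin, were called over NC in these groups, and no fold is given for them. A2M, SERPINB2 and CPB2 passed the filter on low counts only through the libraries where they were high, and the counts of called genes above include them.

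**Figure D4:**
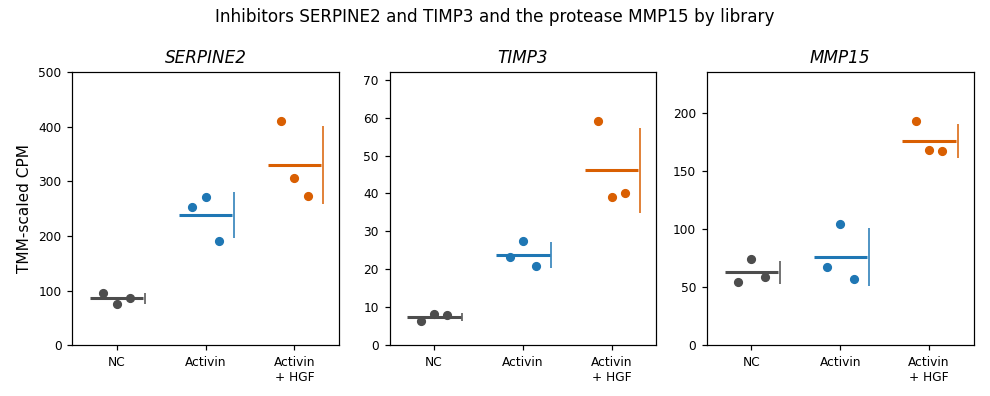
TMM-scaled CPM of SERPINE2, TIMP3 and MMP15 in every library, on linear axes that start at 0. Points are replicates 1, 2 and 3 from left to right, horizontal lines are means and vertical lines SD (n = 3). SERPINE2 and TIMP3 lie above NC in all treated libraries, and MMP15 does so after activin + HGF, with NC and activin libraries overlapping.

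Of 18 other metalloproteinases, 15 were measured and 11 tested. Of the 11, 2 rose with activin over NC, 3 rose and 1 fell in activin + HGF over activin, and 7 rose in activin + HGF over NC, where 6.78%, 3.87% and 11.3% of all tested genes were called higher and 4.62%, 4.21% and 10.2% lower, with median log2 fold changes of 0.73, 0.61 and 1.17. MMP15, a membrane-type relative of MMP14, was at 54.7, 74.3 and 59.1 CPM in NC, 67.0, 105 and 56.8 CPM in activin, and 193, 169 and 167 CPM in activin + HGF libraries. It rose by 1.21 in activin + HGF over activin (SE 0.234, edgeR adjusted p = 0.0122), and NC and activin overlapped (0.28, SE 0.231, adjusted p = 0.463). MMP11, stromelysin 3, rose by 1.66 (SE 0.355, edgeR adjusted p = 0.0166) and MMP28, epilysin, by 2.02 (SE 0.354, adjusted p = 0.00854) over activin. MMP25, another membrane-anchored member, rose by 1.47 with activin over NC (SE 0.279, edgeR adjusted p = 0.00558).

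MMP19 was named after its values were seen, as the gene of this list that fell. It was at 0.604, 0.312 and 0.559 CPM in NC, 4.36, 5.07 and 5.04 CPM in activin, and 0.606, 1.18 and 1.54 CPM in activin + HGF libraries. It rose by 3.29 with activin (SE 0.429, edgeR adjusted p = 0.000782) and fell by 2.12 from activin to activin + HGF (SE 0.406, adjusted p = 0.0117). Its activin libraries thus stood above all others. MMP19 was still called higher in activin + HGF over NC (1.17, SE 0.406, edgeR adjusted p = 0.0495). The gelatinases were low. MMP2, the main proenzyme that MMP14 activates, had 0, 0 and 3 counts in NC, 18, 7 and 8 in activin, and 19, 12 and 20 in activin + HGF libraries, and reached 0.278 CPM. It passed the filter on low counts only through its treated libraries, so its place among the 7 genes called after activin + HGF over NC says little. MMP9 was at 0.419, 0.739 and 0.616 mean CPM with log2 fold changes of 0.81, -0.26 and 0.55, and none passed the test (edgeR adjusted p 0.42 to 0.815).

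Among 15 other metalloproteinase inhibitors and activators, 14 were tested. Of the 14, 2 rose with activin over NC, 3 rose in activin + HGF over activin, and 7 rose and 1 fell in activin + HGF over NC, beside the same 6.78%, 3.87% and 11.3% of all genes higher and 4.62%, 4.21% and 10.2% lower, with median log2 fold changes of 0.46, 0.59 and 1.02. TIMP3, the inhibitor that binds to matrix, was at 6.27, 8.09 and 7.95 CPM in NC, 23.3, 27.5 and 20.8 CPM in activin, and 59.1, 39.2 and 40.1 CPM in activin + HGF libraries. No groups overlapped. TIMP3 rose by 1.68 with activin (SE 0.223, edgeR adjusted p = 0.000835) and by 2.63 with activin + HGF over NC (SE 0.23, adjusted p = 5.33e-05), and the step between them was 0.95 (SE 0.218, adjusted p = 0.0211), just under the fold limit.

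CTSB, cathepsin B, a cysteine protease that can activate prourokinase, had means of 128, 300 and 652 CPM in NC, activin and activin + HGF. It rose by 1.23 with activin (SE 0.296, edgeR adjusted p = 0.017) and by 1.12 from activin to activin + HGF (SE 0.296, adjusted p = 0.0346). CST3, cystatin C, which inhibits cathepsins, rose by 1.24 in activin + HGF over activin (SE 0.196, edgeR adjusted p = 0.0062). PCSK7, a proprotein convertase, fell by 1.01 in activin + HGF against NC (SE 0.173, edgeR adjusted p = 0.00192). RECK, a membrane-anchored inhibitor, stayed at 5.73, 5.54 and 5.13 mean CPM with log2 fold changes of -0.05, -0.11 and -0.16 (edgeR adjusted p 0.656 to 0.926).

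**Figure D5:**
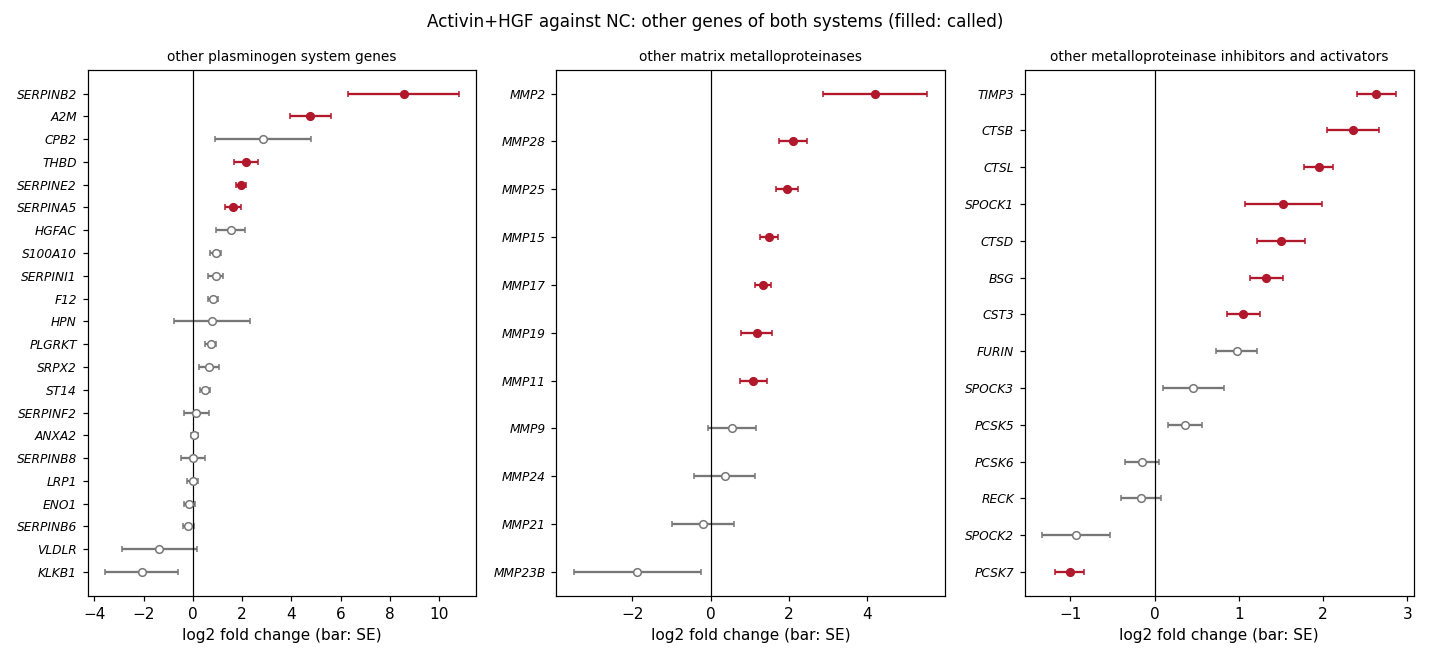
Fitted log2 fold changes of activin + HGF against NC for tested genes of 3 lists (other plasminogen system genes, other metalloproteinases, and inhibitors and activators), with bars of 1 SE and filled points for called genes. SERPINE2 lies at 1.94 and TIMP3 at 2.63, PCSK7 is the called gene to the left of 0, and the values of SERPINB2 (0 counts in NC) and MMP2 (3 counts in NC) depend on the prior count of the fit.

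ADAM and ADAMTS proteases shed proteins from the cell surface or cut matrix proteoglycans. Of 12 tested, 2 rose with activin over NC (16.7%, against 6.78% of all tested genes). They were ADAM17, which releases many growth factor ligands, by 1.09 (SE 0.21, edgeR adjusted p = 0.006), and ADAMTS13, the von Willebrand factor protease, by 1.03 (SE 0.24, adjusted p = 0.0146). In activin + HGF over activin 0 were called by edgeR or DESeq2, with 1 at an unadjusted p under 0.05, and in activin + HGF over NC the called gene was ADAM15 (1.03, SE 0.247, edgeR adjusted p = 0.0102). These are 0% and 8.33% of the 12, where 3.87% and 11.3% of all tested genes were called higher, so the last count was no higher a share than over all genes.

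AP-1 and ETS factors are known regulators of PLAU, PLAUR and several metalloproteinase genes. All 14 listed genes were tested, of which 7 rose and 1 fell with activin over NC, 4 rose in activin + HGF over activin, and 8 rose and 1 fell in activin + HGF over NC, where 6.78%, 3.87% and 11.3% of all tested genes were called higher and 4.62%, 4.21% and 10.2% lower, with median log2 fold changes of 1.15, 0.56 and 1.44. FOSL1, an AP-1 partner, was at 31.0, 39.6 and 32.7 CPM in NC, 137, 231 and 130 CPM in activin, and 380, 245 and 227 CPM in activin + HGF libraries. It rose by 2.27 with activin (SE 0.28, edgeR adjusted p = 0.000549) and by 3.04 with activin + HGF over NC (SE 0.289, adjusted p = 7.71e-05), and the treated groups overlapped (0.77, SE 0.268, adjusted p = 0.0831).

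JUN, a core AP-1 subunit, had means of 18.6, 150 and 495 CPM in NC, activin and activin + HGF. It rose by 3.02 (SE 0.333, edgeR adjusted p = 0.000308) and then by 1.72 (SE 0.316, adjusted p = 0.0103). JUNB rose by 2.65 with activin (SE 0.287, edgeR adjusted p = 0.000288), and FOS by 2.25 from activin to activin + HGF (SE 0.363, adjusted p = 0.00676). ETS1, the founding ETS factor, rose by 1.87 with activin (SE 0.182, edgeR adjusted p = 0.000167), and activin + HGF over activin gave -0.05 (SE 0.176, adjusted p = 0.876). ETV4 was not called in any comparison (0.21, 0.22 and 0.43), nor was ETV5, whose values against NC of 0.90 in both treated groups (edgeR adjusted p = 0.00644 and 0.00384) lay under the fold limit. ETV1 fell by 1.06 with activin (SE 0.191, edgeR adjusted p = 0.00423).

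For the 6 genes with a mean FPKM of at least 1, the 3 genes with the most alike profile were sought among 12082 others, by the root mean square difference of log2(CPM + 0.5) over the 9 libraries after centring each gene. The profile of PLAU was closest to SHISA4 (0.0858), NCKAP5L (0.0993) and ITGA5 (0.110), the integrin subunit of the fibronectin receptor, where PLAU itself spanned 1.81 on that scale. PLAUR was closest to FOSL1 (0.179), NR1D1 (0.197) and CDK2AP2 (0.200) over a span of 3.65. MMP14 was closest to IER5 (0.111), TMED9 (0.120) and SHANK3 (0.120) over a span of 2.24. For TIMP1 the closest were JUND (0.114), an AP-1 subunit, ENTPD2 (0.118) and CST6 (0.123) over a span of 2.56. PLAT was closest to NUBP1 (0.135), APOO (0.148) and CHCHD3 (0.162) over a span of only 1.10. The nearest to TIMP2 were farther off, with RPS7P10 at 0.272, ZNF444 at 0.322 and H2AZ1 at 0.324 over a span of 2.05. All profiles share the same libraries and scaling, and the differences are descriptions.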

How the data were processed

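RNA of HCT116 cells was depleted of ribosomal RNA and sequenced in 9 libraries, 3 per group by title and treatment label. The submitters' processing notes name cutadapt 1.9, HISAT2 2.0.4 and StringTie 1.3.4d. The authors deposited raw counts per gene and FPKM values, which they had normalized to library size and transcript length. Of counts from 1 to 40, 35% were multiples of 4, where evenly spread counts would give 25%, so a count need not be 1 fragment, and intervals and limits from counts cover counting error only. The genome build is not given in the sources used here, and 99.8% of 32930 shared gene IDs overlapped the GENCODE GRCh38 annotation, with 60.0% at the same start and end.

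Counts were tested with edgeR 4.0.16 in R 4.3.3 (filterByExpr, TMM, quasi-likelihood test, group means, all 9 libraries, no block), a method tested on simulated data first. The SE is the log2 fold change divided by the root of F. CPM uses TMM-scaled libraries. With 3 libraries against 3, the smallest exact two-sided permutation p is 0.1. Such values were computed for the listed genes, but no call rests on them. The 3 comparisons were activin against NC, activin + HGF against activin and activin + HGF against NC. Alternatives were other scalings and filters, the replicate block, only the groups compared, DESeq2 1.42.0, limma 3.58.1 on log2(FPKM + 0.1) or log2(FPKM + 1), counts divided by 4, other thresholds and each library left out. Leaving out activin replicate 2 with activin + HGF replicate 1 was added after seeing the data. Figures and joins were made in Python 3.11.15 with matplotlib 3.10.9 and pandas 2.3.3.

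Named genes are the 10 members, SERPINE2, PLG, MMP2, MMP9, MMP15, TIMP3, RECK, FOSL1, ETS1, ETV4 and ETV5, in each list and comparison the 2 called genes with the largest increase and the 2 with the largest decrease (mean FPKM of 1 or more in the group where they were higher), and the 3 most alike genes of each member at that level. Members and lists were chosen with earlier results of these data known, so counts over them are descriptions. The text says where a gene outside this rule is named. A result under this rule was left out of the text.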

Additional observations from a re-analysis of the deposited data

How the results depend on the processing

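The members called in activin against NC were the same 4 (MMP1, PLAU, PLAUR and TIMP1) without each library in turn. In activin + HGF against activin, 4 members were called, but 2 with library totals only, 2 with limma on log2(FPKM + 0.1) or log2(FPKM + 1), 1 with the former unfiltered, 0 at an adjusted p under 0.01 (5 at an unadjusted p under 0.05, and 4 called by DESeq2 at 0.05), and 0 to 4 without 1 library. The 0 came without activin replicate 1 (4 at an unadjusted p under 0.05), 1 was called without activin replicate 3 (TIMP2, which is none of the 4), and 2 of the 4 without activin + HGF replicate 1. Without both libraries that stood apart, 4, 3 and 5 members were called in the 3 comparisons, with MMP10 lost from both comparisons of activin + HGF. Of the 48 tested other genes of both systems, 9, 8 and 21 were called. The 9 became 5 with limma on log2(FPKM + 1). The 8 became 5 with library totals only, 5 with only the groups compared, 3, 0 and 2 with limma on log2(FPKM + 0.1), on log2(FPKM + 1) and unfiltered, 2 at an adjusted p under 0.01, and 3 to 12 without 1 library (3 without activin replicate 1 or 3, 12 without activin replicate 2). For the 0, limma had 18 at an unadjusted p under 0.05, and DESeq2 called 8. The 21 became 13 and 8 with limma on log2(FPKM + 0.1) and log2(FPKM + 1). The cause was not tested in any of these, beyond the smaller number of libraries or genes.

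Signs turned for uncalled values only: PLAU in activin + HGF against activin was 0.08 without activin replicate 2 and 0.10 without both libraries that stood apart (-0.40 to 0.10 over left-out libraries). PLAT in activin + HGF against NC was -0.021 with library totals only, -0.065 with limma on log2(FPKM + 0.1), filtered or not, and -0.039 with log2(FPKM + 1). TIMP2 in activin against NC was 0.0036 with library totals only, 0.01 without NC replicate 2, 0.21 and 0.07 without activin replicates 1 and 2, and 0.08 without both libraries that stood apart (-0.61 to 0.21 over left-out libraries). Library totals moved the median log2 fold change of all genes by -0.34 and -0.27 in the comparisons of activin + HGF with activin and NC. PLAU over NC with activin + HGF kept its call in 8 of 12 alternatives other than left-out libraries. MMP1 over NC with activin was 0.43 (adjusted p = 0.105) with limma on log2(FPKM + 1) and 1.74 (adjusted p = 0.0772) unfiltered. MMP10 over NC with activin + HGF had an adjusted p of 0.0571 with only the groups compared in edgeR.

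Same-numbered libraries correlated at -0.103 to 0.195 in their deviations from the group means. Differently numbered libraries were not compared, so whether replicate numbers pair the libraries cannot be told. With the replicate block, 4, 4 and 6 members were called, the same genes as without it, and 9, 8 and 18 of the other genes. Depth limited MMP7, MMP13, PLG and MMP2, whose counts were near 0.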

Other observations

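Genes that overlap the members held few counts beside them. C10orf55, on the strand opposite PLAU, held 418 counts over the 9 libraries where PLAU held 49912, and CEP295NL, inside TIMP2 on the same strand, held 64 where TIMP2 held 104386. C10orf55 had 7, 24 and 31 counts in NC, 42, 81 and 42 in activin, and 16, 105 and 70 in activin + HGF libraries. Whether these reads were told apart from PLAU by strand is not stated in the sources used here.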
